A study of Mus musculus with 12 samples.

Results

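Interleukin-8 (IL-8, also called CXCL8) is a chemokine that acts through the receptors CXCR1 and CXCR2, and mouse KC is a related chemokine that binds CXCR2. The 8 genes described here are the mouse genes of these receptors and of chemokines grouped here as CXCR2 ligands. They were chosen by gene symbol and not by how they moved, and all 8 were found among the 23185 entries with 1 gene symbol. They are the receptor genes Cxcr1 (Entrez 227288) and Cxcr2 (Entrez 12765) and the ligand genes Cxcl1 (Entrez 14825), Cxcl2 (Entrez 20310), Cxcl3 (Entrez 330122), Cxcl5 (Entrez 20311), Cxcl15 (Entrez 20309) and Ppbp (Entrez 57349). Muscle RNA was hybridised to 12 Affymetrix arrays: 3 held RNA of vehicle-injected mice, 4 that of mice given recombinant KC and 5 that of mice given recombinant IL-8. Both proteins were injected into the peritoneum at 50 µg/kg, every other day for 6 days, and the vehicle was 0.1% BSA, the diluent that the IL-8 mice received too. The study's methods describe the vehicle and IL-8 mice as C57BL/6J males, 8 weeks old, whose tibialis anterior (TA) muscle was taken on day 7, and the IL-8 as the human protein. For the mice that received KC, the sources used here give neither strain, sex, age nor day of harvest, and they do not name the species of the KC protein. Each array is labelled as a separate sample, and whole muscle holds fibers together with vessels, blood and connective tissue cells.

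Chemokines are small secreted proteins that steer white blood cells. Those with the residues glutamate, leucine and arginine ahead of the CXC motif (ELR-positive chemokines) include the ligands of CXCR2. This receptor couples to inhibitory G proteins and on neutrophils drives migration toward infected or injured tissue. Mice have no gene for IL-8 itself and use several related ELR-positive chemokines, among which Cxcl1 encodes KC. Receptor signaling runs through phospholipase C, PI3 kinase and the ERK cascade and is ended by receptor phosphorylation, arrestin binding and internalization. In muscle these ligands are known to be induced by inflammation and by exercise, and the study used the CXCR2 antagonist SB225002 on myotubes to ask whether this receptor carries the atrophy signal of IL-8. The arrays allow the question of how far the receptor and ligand transcripts stood above background in the muscle, and whether they differed after injections of IL-8 or KC. The injected proteins themselves leave no signal on an array.

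The ligand genes lie together in the mouse genome. In the RefSeq annotation of GRCm38.p6, the 7 protein-coding genes from Cxcl5 to Cxcl2 on chromosome 5 run in the order Cxcl5, Ppbp, Pf4, Cxcl3, Cxcl15, Cxcl1 and Cxcl2, so that Pf4, the platelet factor 4 gene, is the only one of the run that is not among the 6 ligand genes. Cxcr2 and Cxcr1 are neighbors on chromosome 1. Upstream sequence from RefSeq was at hand for 7 of the 8 genes, Cxcl5 being the exception. The 250 bases before each gene start were searched on both strands for the letters GGAATTTCC, a form of the kB site that NF-kB proteins bind. Cxcl1, Cxcl2 and Cxcl3, the mouse genes related to the human GRO chemokines, each held 1 match on the forward strand, and the windows of Cxcr1, Cxcr2, Cxcl15 and Ppbp held none. Of all 32851 windows of this length, 94 (0.286%) held it. The 3 stretches are shown because they hold the match, and the values of the same genes follow. Capitals mark the match, all are on the plus strand of GRCm38.p6, and a match is a description of letters and not evidence of binding.
Cxcl1, chr5:90891155-90891243: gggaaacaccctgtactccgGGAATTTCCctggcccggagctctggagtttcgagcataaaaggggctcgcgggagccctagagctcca
Cxcl2, chr5:90903783-90903871: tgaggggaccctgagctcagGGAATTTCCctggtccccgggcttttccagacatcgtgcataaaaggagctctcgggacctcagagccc
Cxcl3, chr5:90786009-90786097: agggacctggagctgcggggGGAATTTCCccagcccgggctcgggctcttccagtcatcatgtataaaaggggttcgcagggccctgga
The match starts 70 bases before the gene start in Cxcl1, 96 in Cxcl2 and 72 in Cxcl3.

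All values below are on the log2 scale and come from robust multi-array averaging (RMA), which corrects the background, equalizes the arrays and summarizes the probes of a gene. Array medians over all named genes were 3.31 to 3.48, and across genes, which are not independent replicates, the 66 pairs of arrays correlated at 0.953 to 0.991. In 3 of the arrays liver transcripts were high (replicates 2 and 4 of vehicle, replicate 1 of IL-8), with Alb, the albumin gene, at 7.70 to 10.15, against 3.14 to 5.36 in the other 9. These 3 are called the liver-transcript arrays. For the 8 genes, differences from vehicle that move with them are given with and without them. All 12 markers of skeletal muscle, such as Acta1 and Myh4, were bright, with list means of 11.32 to 11.70 per array. Precision is limited by how few arrays there are, and in bulk muscle fewer cells of a type and less RNA per cell cannot be told apart.

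None of the 8 genes stood far above the middle of the array. On average over 12 arrays only Ppbp was above the array median, by 0.21 ± 0.58 (SD, n = 12), and it was above it in 7 of 12 arrays. Cxcl1 was 0.036 below the median on average and above it in 7 arrays, and Cxcr1 was 0.069 below and above it in 4 arrays. The other 5 genes were below the array median in all 12 arrays, by an average of 0.62 for Cxcr2, 1.31 for Cxcl15, 1.55 for Cxcl5, 1.67 for Cxcl2 and 2.16 for Cxcl3 on the log2 scale. The share of all genes that were dimmer in an array ran from 41.0% to 68.8% for Ppbp, from 28.1% to 47.2% for Cxcr2 and from 0.401% to 8.20% for Cxcl3. Probes of different genes differ in how strongly they bind, so these levels do not rank the genes by amount of RNA.

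Olfactory receptor genes served as a reference for rows that muscle is not known to use. Their mean values over the 12 arrays had a median of 1.63 and a 95th percentile of 3.20, with 1082 genes. Cxcr1, Cxcl1 and Ppbp lay above that 95th percentile, at means of 3.31, 3.34 and 3.58, while 47, 42 and 28 olfactory receptor genes were at or above them, and none of the 8 genes passed the 99th percentile of 4.12. In the single array where each stood lowest by this reference, Cxcr1, Cxcl1 and Ppbp were above 91.6%, 79.7% and 87.1% of the olfactory receptor genes. Cxcr2, at a mean of 2.76, was above 90.8% of the olfactory receptor genes, short of the 95th percentile. In single arrays it was above 78.2% to 95.9% of them. Cxcl15 was above 72.3% of them, Cxcl5 above 62.5% and Cxcl2 above 55.0%, and Cxcl3, at a mean of 1.22, above 16.2%. By this reference the rows of Cxcl2, Cxcl3, Cxcl5 and Cxcl15 were not separated from rows of genes of the nose, and transcripts of these 4 ligands were not detectable as distinct from background in these arrays. RMA values this close to background can understate fold changes, so a small difference there need not mean a small difference in RNA.

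**Figure D1:**
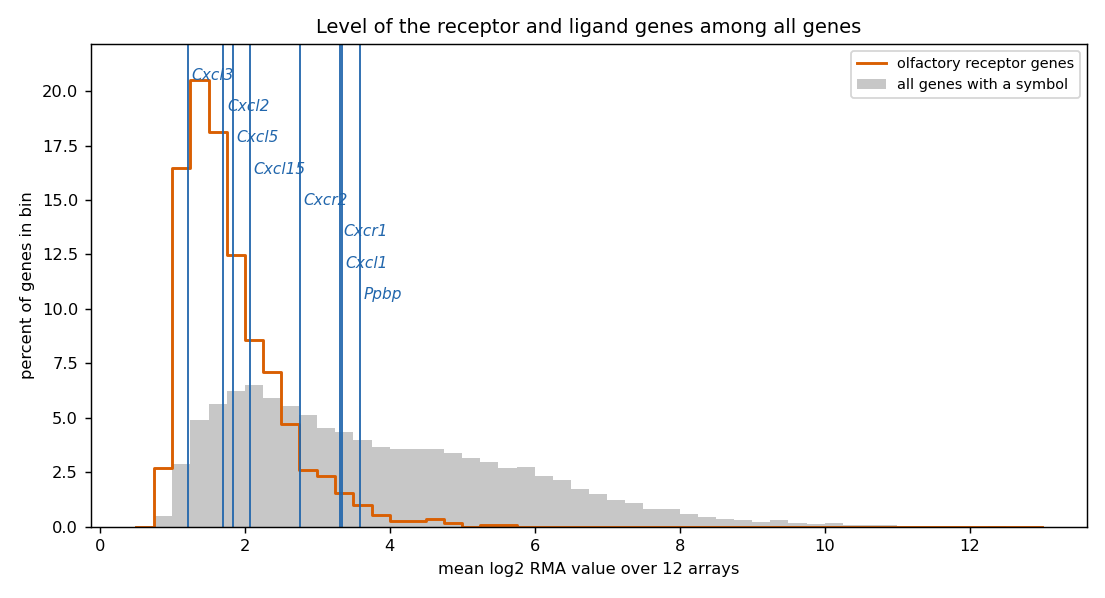
Mean log2 RMA value over 12 arrays (x axis) against the percent of genes in each bin (y axis), for all 23185 genes with a symbol (grey bars) and for 1082 olfactory receptor genes (orange line), with a blue line at each receptor and ligand gene. Cxcl3, Cxcl2, Cxcl5 and Cxcl15 fall within the main body of the olfactory receptor genes, and Cxcr1, Cxcl1 and Ppbp in its upper tail.

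Cxcr2 encodes a receptor of ELR-positive chemokines, the one that the antagonist blocks. It was at 2.76, 2.86 and 2.61 in vehicle replicates 1, 2 and 4. With KC it was at 2.41, 2.79, 2.85 and 3.03 in replicates 1 to 4, and with IL-8 at 3.21, 3.03, 2.67, 2.24 and 2.68 in replicates 1 to 5. The vehicle arrays sat in the middle of both treated groups, and the IL-8 arrays held both the highest and the lowest value of the series. The group means were 2.74 ± 0.13 (SD, n = 3), 2.77 ± 0.26 (SD, n = 4) and 2.77 ± 0.37 (SD, n = 5). IL-8 differed from vehicle by 0.028 (standard error 0.20, adjusted p = 0.947 from limma), with a 95% interval of -0.41 to 0.47, or 0.751-fold to 1.38-fold. KC differed from vehicle by 0.029 (0.17, adjusted p = 0.996), with an interval of -0.35 to 0.41, and IL-8 from KC by -7.0e-04 (0.19, adjusted p = 0.999), with an interval of -0.42 to 0.42. All 3 intervals lie inside the 1.5-fold limits used for calls. IL-8 replicate 1, the highest array, is a liver-transcript array, and without the 3 such arrays IL-8 and vehicle differed by -0.099.

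Cxcr1 encodes the other IL-8 receptor, and in mice it is also found on neutrophils. It was at 3.39, 3.38 and 3.54 in the vehicle arrays. It was at 3.24, 3.42, 3.25 and 3.22 with KC and at 3.27, 3.41, 3.16, 3.23 and 3.24 with IL-8. The groups overlapped because 1 array of each treated group, KC replicate 2 and IL-8 replicate 2, lay within the vehicle range, while the others lay below it. The row was one of the steadiest on the array, with a standard deviation within groups of 0.091, above that of only 1.68% of all genes. IL-8 differed from vehicle by -0.17 (standard error 0.11, adjusted p = 0.372 from limma) and KC by -0.15 (0.13, adjusted p = 0.994). The 95% intervals were -0.41 to 0.071 and -0.45 to 0.15, both inside the 1.5-fold limits, as was that of IL-8 against KC, -0.23 to 0.19.

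Cxcl1 encodes KC, the chemokine that 1 of the groups received as protein. It was at 3.18, 2.74 and 3.86 in the vehicle arrays, a spread that covered every treated array. It was at 3.38, 2.99, 3.47 and 3.32 with KC and at 2.96 to 3.77 with IL-8, where replicate 2 was lowest and replicate 1 highest. The lowest and the highest value of the series were thus both from vehicle arrays, which are both liver-transcript arrays. Mean levels were 3.26 ± 0.56 (SD, n = 3) with vehicle, 3.29 ± 0.21 (SD, n = 4) with KC and 3.44 ± 0.31 (SD, n = 5) with IL-8. The difference from vehicle was 0.034 (standard error 0.25, adjusted p = 0.996 from limma) for KC and 0.18 (0.25, adjusted p = 0.689) for IL-8. The intervals reached from -0.52 to 0.59 for KC and from -0.37 to 0.73 for IL-8, so that for the latter a rise of up to 1.66-fold lies inside the interval. Without the liver-transcript arrays the differences were 0.11 and 0.18, each against vehicle replicate 1 alone, and without vehicle replicate 2 they were -0.23 and -0.079.

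Cxcl2 (MIP-2) and Cxcl3 encode the neutrophil chemokines most like KC. Cxcl2 ranged from 1.44 to 2.04 with vehicle, 1.71 to 1.87 with KC and 1.23 to 1.88 with IL-8, and Cxcl3 from 1.17 to 1.40, 0.92 to 1.55 and 0.94 to 1.42 in the same order. In both genes the groups overlapped in all comparisons. Against vehicle, IL-8 arrays differed by -0.19 (standard error 0.18, adjusted p = 0.531 from limma) for Cxcl2 and by -0.20 (0.14, adjusted p = 0.411) for Cxcl3, and KC arrays by -0.030 and 0.033. Cxcl2 was at 1.44 in vehicle replicate 1 and at 1.91 and 2.04 in the liver-transcript vehicle arrays, and without the latter the difference from vehicle replicate 1 was 0.15 for IL-8 and 0.33 for KC. For the 3 genes that share the kB letters, Pearson's r over 12 arrays was 0.27 for Cxcl1 with Cxcl2, -0.15 for Cxcl1 with Cxcl3 and 0.20 for Cxcl2 with Cxcl3, as a description over arrays that share treatment groups and processing.

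Cxcl5 encodes LIX, a chemokine made mostly by epithelial and stromal cells. It ranged from 1.85 to 1.94 with vehicle, 1.71 to 2.09 with KC and 1.70 to 1.90 with IL-8. It differed from vehicle by -0.10 (standard error 0.10, adjusted p = 0.585 from limma) with IL-8 and by -0.067 (0.15, adjusted p = 0.994) with KC. Both intervals lay inside the 1.5-fold limits. Without the liver-transcript arrays these differences were -0.032 and -0.022. The highest KC array, replicate 4 at 2.09, stood apart from the other 3, which were at 1.71 to 1.77.

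Cxcl15 (lungkine), which the study does not name among mouse chemokines acting on CXCR2, encodes a chemokine known from lung epithelium. It was at 2.13, 2.45 and 2.58 in vehicle replicates 1, 2 and 4. It was at 1.91, 1.76, 2.14 and 2.32 with KC and at 1.88, 1.86, 1.81, 1.83 and 2.18 with IL-8. Of the IL-8 arrays, 4 lay below every vehicle array, and replicate 5 lay just above vehicle replicate 1. The group means were 2.39 ± 0.23 (SD, n = 3), 2.03 ± 0.25 (SD, n = 4) and 1.91 ± 0.15 (SD, n = 5). IL-8 differed from vehicle by -0.47 (standard error 0.14), with an interval of -0.78 to -0.16, an unadjusted p of 0.00641 and an adjusted p of 0.116 from limma, so that it did not pass, and its fold change of 1.39 was also under the minimum of 1.5. The difference was -0.31 with quantile normalization and -0.38 when centred on the array median. With array weights it was -0.58, with an adjusted p of 0.042 from limma, and the Storey q-value of the main limma fit was 0.067. Both are under 0.1, but the change was short of the 1.5-fold minimum. On the deposited values, the two-sided exact permutation test over 56 splits gave p = 0.0357, where 0.0179 is the smallest possible. This was the only one of 24 gene and comparison pairs with an unadjusted p under 0.05, which 21.7% of all genes had in the same comparison.

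The 2 highest Cxcl15 values came from the liver-transcript vehicle arrays. Within the liver-transcript arrays IL-8 replicate 1 was 0.63 below the mean of vehicle replicates 2 and 4, and within the others the IL-8 mean was 0.21 below vehicle replicate 1. KC differed from vehicle by -0.36 (standard error 0.18, adjusted p = 0.994 from limma) over all arrays and by -0.10 against vehicle replicate 1 alone. Over the 12 arrays Cxcl15 and the mean of 11 liver genes had a Pearson r of 0.58, and Cxcl15 and the mean of 7 lung epithelial genes one of 0.69, both as descriptions over arrays that share treatment groups. None of the 7 lung genes, Sftpc and Scgb1a1 among them, exceeded the 95th percentile of the olfactory receptor genes, and the list means were 2.21 to 2.39 with vehicle, 2.19 to 2.34 with KC and at most 2.28 with IL-8. The part of liver transcripts in the Cxcl15 values was not tested. Without vehicle replicate 1, which leaves only liver-transcript arrays as controls, the IL-8 difference was -0.60 with an adjusted p of 0.0199 from limma. This was the single setting in which any of the 8 genes was called, and it called 3338 of all 23185 genes.

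Ppbp encodes the precursor that platelets store and cut into the CXCR2 ligand NAP-2. It varied most of the 8 genes, with a standard deviation within groups of 0.54, above that of 97.3% of all genes. It was at 4.67, 3.73 and 3.09 in vehicle replicates 1, 2 and 4. It was at 3.24, 3.17, 3.53 and 2.97 with KC and at 3.57, 3.38, 4.57, 3.17 and 3.92 with IL-8. Vehicle replicate 1 and IL-8 replicate 3 were the high arrays, and no KC array was above 3.53. KC differed from vehicle by -0.60 (standard error 0.32, adjusted p = 0.994 from limma) and IL-8 from KC by 0.49 (0.25, adjusted p = 0.292), with intervals of -1.31 to 0.11 and -0.045 to 1.03. IL-8 differed from vehicle by -0.11 (0.37, adjusted p = 0.879) with an interval of -0.93 to 0.71, by -0.43 (adjusted p = 0.687) with the liver-transcript arrays as a block, and by -0.92 (adjusted p = 0.632) without them, against vehicle replicate 1 alone. The KC difference was -0.18 without vehicle replicate 1 and -1.45 against that array alone. The platelet product Pf4, whose gene adjoins Ppbp, was at 5.02 in vehicle replicate 1 and at 4.36 in IL-8 replicate 3, in a range of 3.75 to 5.06, and r between Ppbp and Pf4 was 0.079 over 12 arrays. With the mean of 10 platelet and megakaryocyte genes it was 0.063.

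**Figure D2:**
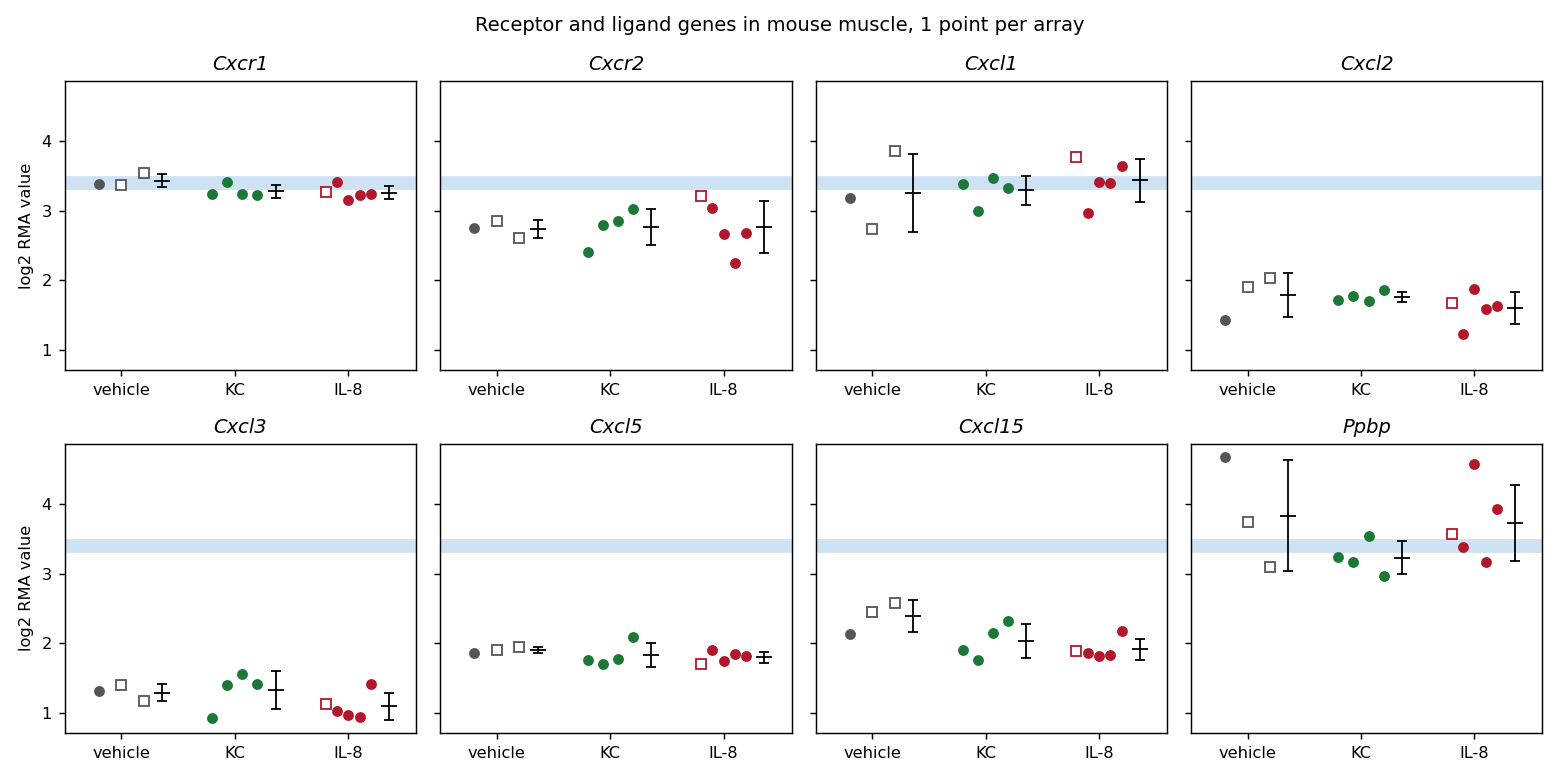
Log2 RMA value (y axis) of each receptor and ligand gene in the vehicle (n = 3), KC (n = 4) and IL-8 (n = 5) arrays, 1 point per array, with the mean and SD in black beside each group, open squares for the 3 liver-transcript arrays and a blue band for the range of array medians (3.31 to 3.48). The groups overlap in all 8 panels, and 5 of the genes lie below the band in every array.

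Over all comparisons, limma called 0 of the 8 genes. A call needed a p, adjusted by Benjamini-Hochberg, no higher than 0.1 together with a change of 1.5-fold or more. The study used these limits with another statistic, the comparative marker selection module of GenePattern, which was not run here. For IL-8 against vehicle, 592 of 23185 genes (2.55%) were called, 1.75% higher and 0.802% lower, for KC against vehicle 0 (0%, with 923 genes, or 3.98%, at an unadjusted p under 0.05 and 0 called by the methods' t-test), and for IL-8 against KC 700 (3.02%), 1.61% higher and 1.41% lower. At these rates a set of 8 genes holds few calls in any case. At an unadjusted p under 0.05 there was 1 of 8 genes for IL-8 against vehicle, Cxcl15, whether limma, the methods' t-test or the exact permutation test was used, and 0 by each of these for the other comparisons, where limma gave such a p to 3.98% and 19.8% of all genes. Groups did not overlap for 0 of 8 genes in any comparison, where 11.0%, 4.94% and 6.68% of all genes did so for IL-8 against vehicle, KC against vehicle and IL-8 against KC. The median log2 difference over the 8 genes was -0.14, -0.048 and -0.027, beside -0.071, -0.0043 and -0.047 over all genes. The comparisons with vehicle share the 3 vehicle arrays, so their values are not independent.

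The 95% interval lay inside the 1.5-fold limits for 5 of 8 genes in IL-8 against vehicle, where 57.5% of all genes had such an interval. The exceptions were Cxcl1, Cxcl15 and Ppbp. The same 3 genes were the exceptions in KC against vehicle (5 of 8 genes inside, against 57.8% of all genes). In IL-8 against KC only Ppbp had an interval beyond the limits (7 of 8 inside, against 71.0%). IL-8 and KC were given at the same dose and schedule, and none of the 8 genes passed the test between them, with adjusted p of 0.292 to 0.999 from limma. A p that misses the limit does not show that the proteins act alike.

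**Figure D3:**
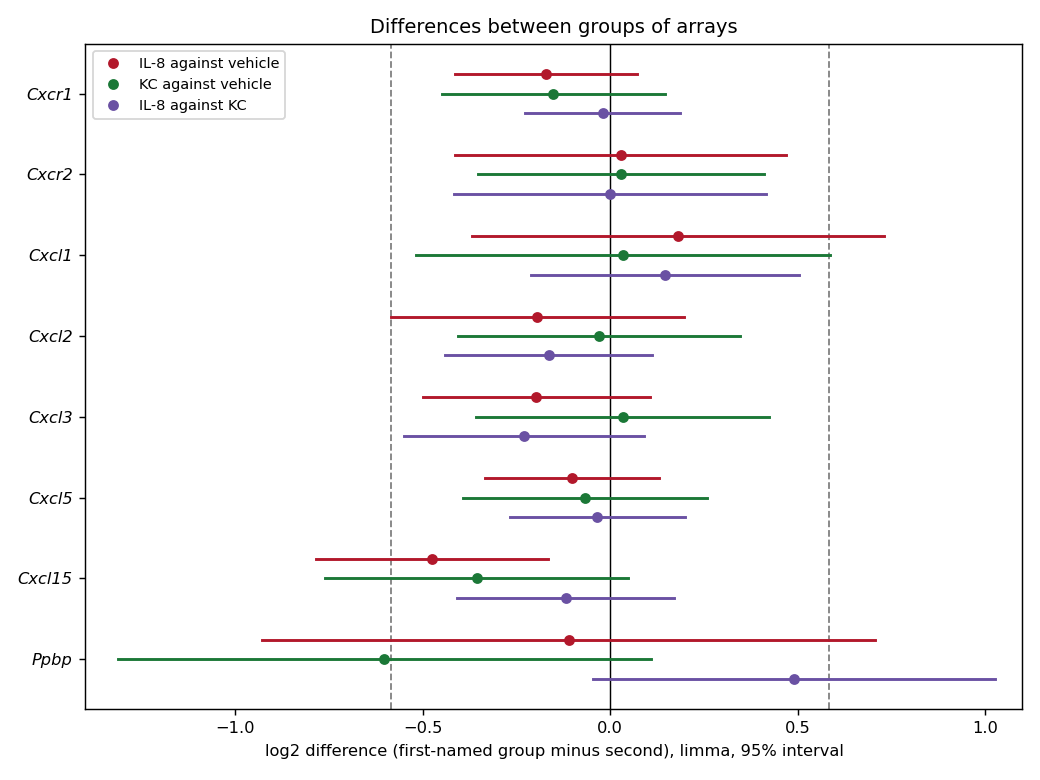
Log2 difference (x axis) of each receptor and ligand gene for IL-8 against vehicle, KC against vehicle and IL-8 against KC, with points for the limma estimate, lines for its 95% interval and dashed lines at the 1.5-fold limits. The interval of Cxcl15 for IL-8 against vehicle, -0.78 to -0.16, is the only one that leaves out 0, and within each comparison the Ppbp interval is the widest.

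Across arrays the 8 genes went largely their own ways. Over their 28 pairs, Pearson's r across the 12 arrays was -0.31 to 0.67 with a median of 0.10, and the highest was that of Cxcl5 with Cxcl15. The genes whose pattern was most like that of Cxcr2 were Ebpl (r = 0.88, Spearman 0.91), Tns4 (0.87, 0.85) and Cx3cl1 (0.87, 0.90), the last of which encodes the chemokine fractalkine. For Cxcl1 they were Pcdhga8 (r = 0.90, Spearman 0.87), Sgip1 (0.87, 0.82) and Pom121l2 (0.84, 0.73). These are the highest values over 12 arrays once predicted genes, clones, olfactory and vomeronasal receptors and small RNAs were left out, and they describe likeness only.

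Of the other genes of the pathway, 67 were measured, in lists for other CXC receptors, CXC chemokines without the ELR motif, CXCR2 signaling, receptor desensitization and inflammatory cytokines. With IL-8, 1 of the 67 rose and 2 fell against vehicle, where 1.75% of all genes were called higher and 0.802% lower. With KC none was called, and by limma 1 gene, which was lower, had an unadjusted p under 0.05, where 3.98% of all genes did. Against KC, 2 were lower with IL-8, where 1.41% of all genes were called lower.

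Cxcl13, a chemokine that attracts B cells through CXCR5 and lacks the ELR motif, was at 3.98, 4.40 and 4.15 with vehicle and at 3.58, 3.34, 3.72, 3.52 and 3.49 with IL-8. Every IL-8 array lay below every vehicle array, and the gene fell by 0.64 on the log2 scale (standard error 0.13, adjusted p = 0.091 from limma). Cxcl9, a chemokine that interferon gamma induces and that attracts T cells through CXCR3, was at 3.74, 4.22, 3.63 and 3.81 with KC and at 3.06 to 3.48 with IL-8. It was lower with IL-8 than with KC by a log2 difference of -0.61 (0.14, adjusted p = 0.071), again without overlap, while against vehicle KC differed by 0.32 (0.17, adjusted p = 0.994). Of the 9 chemokines without the ELR motif, 0 were higher and 1 lower with IL-8, both against vehicle and against KC. Of all genes, 0.802% and 1.41% were called lower in these 2 comparisons. For KC against vehicle 0 of the 9 were called. The list median was -0.30 for IL-8 against vehicle and -0.30 for IL-8 against KC, beside -0.071 and -0.047 for all genes. Of 6 other CXC receptor genes, limma called 0 in each comparison. For IL-8 against vehicle 1 of the 6 had an unadjusted p under 0.05, as did 21.7% of all genes. It was Cxcr3, at -0.32 (0.11, adjusted p = 0.137). Ackr3, a receptor that scavenges CXCL12, had the highest level of the 6, with a mean of 6.41. It differed by -0.44 (0.24, adjusted p = 0.313) in the same comparison.

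Rgs18, a regulator of G protein signaling found in platelets and their precursors, was at 2.61, 2.65 and 2.77 with vehicle and at 2.20, 1.78, 2.10, 1.76 and 1.83 with IL-8. It fell by 0.75 on the log2 scale against vehicle (standard error 0.14, adjusted p = 0.091 from limma), and it was lower with IL-8 than with KC by a log2 difference of -0.66 (0.16, adjusted p = 0.072). It is a dim row, and of 10 platelet and megakaryocyte markers limma called 0 for IL-8 against vehicle. At an unadjusted p under 0.05, 1 of the 10 was higher and 3 were lower, where 21.7% of all genes had such a p. Their list means were 2.95 to 3.09 with vehicle and 2.68 to 2.96 with IL-8, and Gp1bb, a platelet glycoprotein, differed by -0.51 (0.12, adjusted p = 0.095), short of the fold minimum. Of the platelet markers 4 of 10 exceeded the 95th percentile of the olfactory receptor genes, Pf4 being the brightest, and their part in the Rgs18 difference was not tested. Ap2a1, an adaptor subunit through which receptors are taken up in clathrin-coated pits, was at 5.82, 4.90 and 5.17 with vehicle and at 5.83, 6.49, 5.94, 6.58 and 6.18 with IL-8, a rise of 0.91 (0.23, adjusted p = 0.099). Vehicle replicate 1 and IL-8 replicate 1 nearly touched. Of 16 measured genes of receptor desensitization and trafficking, 1 rose and 1 fell with IL-8 against vehicle. Of all genes, 1.75% were called higher and 0.802% lower. The list median was 0.030, beside -0.071 for all genes.

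Of 18 measured genes of CXCR2 coupling and signaling, limma called 0 in every comparison. With IL-8 against vehicle, 2 of the 18 were higher and 0 lower at an unadjusted p under 0.05, which 21.7% of all genes had. Plcb3, a phospholipase C that G protein subunits activate, was at 4.08, 4.48 and 4.14 with vehicle and at 4.67, 4.83, 4.85, 4.73 and 4.79 with IL-8, a log2 difference of 0.54 (standard error 0.12, adjusted p = 0.091 from limma). The groups did not overlap, but the change was under the 1.5-fold minimum. Map2k1, which encodes the ERK kinase MEK1, differed by 0.35 (0.12, adjusted p = 0.143), and against KC the GTPase gene Rac1 differed by 0.49 (0.11, adjusted p = 0.067), also under the minimum. Of 18 inducers and co-induced cytokines, limma called 0 in each comparison, with 1 higher for IL-8 against vehicle at an unadjusted p under 0.05, which was Zfp36, an mRNA decay factor, at 0.57 (0.23, adjusted p = 0.192). Ccl7 was at -0.29 (0.13, adjusted p = 0.234) with IL-8 and at -0.38 (0.16, adjusted p = 0.994) with KC.

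These pathway calls depended on which arrays and settings were used, as did the count of calls over all genes. For Cxcl13, Rgs18 and Ap2a1 in IL-8 against vehicle, the call held without vehicle replicate 1 or IL-8 replicate 1. It was lost without any other of the 8 arrays, with adjusted p of up to 0.307, 0.307 and 0.346 from limma. The log2 differences themselves kept their sign, at -0.74 to -0.53, -0.81 to -0.70 and 0.71 to 1.17 with 1 array left out. With a block for the liver-transcript arrays, none of these 3 genes passed, at log2 differences of -0.57, -0.64 and 0.62 (adjusted p = 0.214, 0.181 and 0.280 from limma). Without these arrays the differences were -0.46, -0.75 and 0.48 against vehicle replicate 1 alone. Cxcl9 and Rgs18 in IL-8 against KC held only without KC replicate 1 or IL-8 replicate 1, with adjusted p of up to 0.188 and 0.199 in the others. After centring on array medians, Cxcl13 (-0.55) and Cxcl9 (-0.57) fell short of the fold minimum. With all 12 arrays in one fit only Rgs18 against vehicle was still called, and with quantile normalization, the replicate block or the methods' t-test none of these was.

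**Figure D4:**
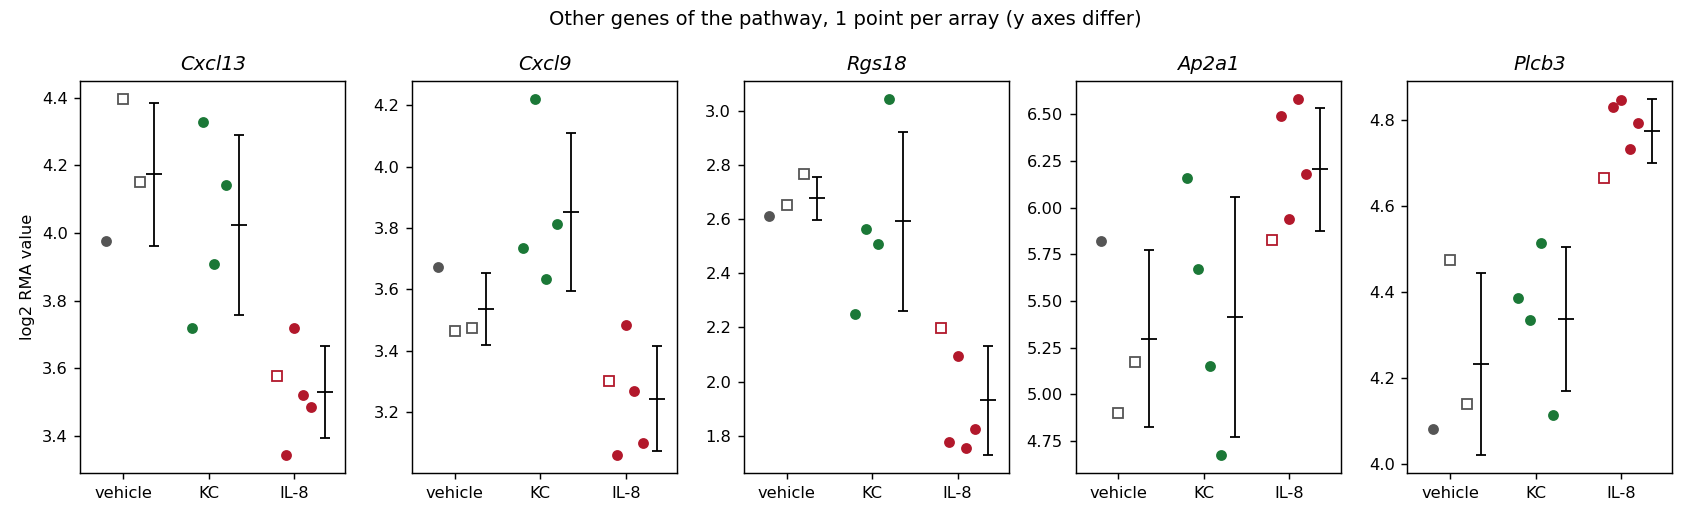
Log2 RMA value (y axes, each with its own range) of the 4 other pathway genes called in a comparison with IL-8 and of Plcb3, in the vehicle (n = 3), KC (n = 4) and IL-8 (n = 5) arrays, 1 point per array, with the mean and SD in black and open squares for the liver-transcript arrays. Cxcl13 and Rgs18 are lower in every IL-8 array than in every vehicle array, and Cxcl9 is lower in every IL-8 array than in every KC array.

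Neutrophils, on which Cxcr1 and Cxcr2 are best known, left little signal on average over the 12 arrays. Of 15 measured neutrophil markers, 2 exceeded the 95th percentile of the olfactory receptor genes, with Mmp9 the brightest at a mean of 3.42, and 3 were at or below the median of the olfactory genes. S100a8, a calgranulin that neutrophils hold in bulk, was at 1.43, 1.56 and 1.21 with vehicle and at 1.41, 1.26, 2.21 and 1.28 in IL-8 replicates 1 to 4, while IL-8 replicate 5 was highest of all 12 arrays. IL-8 replicates 3 and 5 stood out, where Cxcr2 was at 2.67 and 2.68, and r between Cxcr2 and the mean of the neutrophil list was 0.039 over 12 arrays. List means were 2.36 to 2.58 with vehicle, 2.19 to 2.38 with KC and 2.21 to 2.54 with IL-8. Limma called 0 of the 15 in each comparison, with 0 higher and 1 lower at an unadjusted p under 0.05 for IL-8 against vehicle, the elastase gene Elane at -0.29 (standard error 0.12, adjusted p = 0.192). Of 12 endothelial markers 2 rose with IL-8 against vehicle, Vwf by 0.64 (0.12, adjusted p = 0.091) and Robo4 by 0.75 (0.16, adjusted p = 0.091), where 1.75% of all genes were called higher. At an unadjusted p under 0.05, 5 of the 12 were higher and 1 lower, where 21.7% of all genes had such a p in either direction. The mean of the endothelial list was 5.91 in vehicle replicate 1, above every IL-8 array (5.48 to 5.86). In the liver-transcript vehicle arrays, replicates 2 and 4, it was 5.07 and 4.98. No KC array was a liver-transcript array, and the list mean was 5.14 to 5.63 with KC. Against KC, limma called 1 of the 12 higher with IL-8, where 1.61% of all genes were called higher. It was Robo4, at 0.61 (0.12, adjusted p = 0.064). At an unadjusted p under 0.05, 4 of the 12 were higher and 1 lower against KC, where 19.8% of all genes had such a p. The part of the liver-transcript arrays in the endothelial rise was not tested. Of 10 macrophage markers limma called 0 in that comparison, with 1 lower at an unadjusted p under 0.05, which was Cd14 at -0.53 (0.12, adjusted p = 0.093). The part of these cell types in the chemokine values was not tested.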

How the data were processed

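RNA of 12 mouse skeletal muscles was measured on Affymetrix GeneChip mouse gene 2.0 ST arrays. For each Entrez gene the authors deposited a log2 value per array, and no replicates were pooled. The submitters' processing notes name RMA, affy (version 1.36.1) and R (version 2.15.1), and the sources used here do not say whether all arrays went through RMA together. One protocol field of the labels speaks of patient biopsies, while organism, treatment and the study's methods describe mice.

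Genes were named through the platform annotation, which gives 1 symbol to 23185 of 25206 entries, and the other 2021 were unnamed here and left out. Groups were compared with limma 3.58.1 in R 4.3.3 (lmFit and eBayes on the arrays of each pair of groups, no filter on low values), with Benjamini-Hochberg adjustment over all named genes. Where labels do not state separate animals per array, p-values measure the spread between these arrays. Exact permutation tests took the difference of means over all splits. The Welch t-test let the spread differ between groups and used the same adjustment. The tests were tested on simulated data with seed 1.

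The 8 genes, the pathway and marker lists and the rule for other names were chosen with earlier results of these data known. Other names are the called genes of each list (at most 3 per comparison) or, where none was called, the 2 of lowest p, the 3 genes most correlated with Cxcr2 and with Cxcl1, and marker genes. Mmp9 was chosen after its values were seen. Alternatives are given with the limits, and a block for the liver-transcript arrays and their omission were added after seeing the data. Upstream sequence is from RefSeq. Figures were drawn with matplotlib 3.10.9.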

Additional observations from a re-analysis of the deposited data

Results flagged for a closer look

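In 16 groups of 4 or 5 arrays that were examined for a value far from the others, 3 had one, and chance gives about 1 in 20. Cxcr1 was at 3.42 in KC replicate 2, above the other KC arrays, which started at 3.22. Cxcl5 was at 2.09 in KC replicate 4, where the lowest KC array was at 1.71. Cxcl15 was at 2.18 in IL-8 replicate 5, where the lowest IL-8 array was at 1.81, and without that array IL-8 differed from vehicle by -0.54 (adjusted p = 0.136 from limma).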

How the results depend on the processing

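The count of receptor and ligand genes called stayed at 0 in each comparison under every alternative run but 1, the replicate block included. The exception was Cxcl15 in IL-8 against vehicle without vehicle replicate 1, a range of 0 to 1, where 3338 of all genes were called. Deviations of same-numbered arrays from their group means correlated at -0.36 to 0.36. With so few arrays this cannot tell whether the replicate number marks arrays handled together. With that number as a block, limma called 0 genes for IL-8 against vehicle (2484 at an unadjusted p under 0.05) and 0 for IL-8 against KC (3688). The count over all genes for IL-8 against vehicle, 592, was 117 with all 12 arrays in one fit and 2 with quantile normalization. It was 933 with dim genes left out, 2083 with array weights and 1531 with Storey q-values. The Welch t-test called 0 (2289 unadjusted), and limma called 0 when liver-transcript arrays were a block (2701). When 1 array was left out, limma called 0 to 3338. For IL-8 against KC, 700 became 1 with all arrays, 1193 with array weights and 0 with the Welch t-test (3249 unadjusted). It became 0 to 1741 when 1 array was left out. For KC against vehicle the count was 0 to 92. The filter on dim genes kept only Ppbp, and Cxcl1 too for IL-8 against KC.

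Of 396 alternative values of the 8 genes, 352 kept direction and side of the threshold and 43 turned sign, each from a main value that was not called. For IL-8 against vehicle these were Cxcr2 at -0.099 and Cxcl2 at 0.15 without the liver-transcript arrays, Cxcl1 at -0.052 and Ppbp at 0.17 with array weights, and Cxcl5 at 0.064 with quantile normalization. For KC against vehicle they were Cxcl1 at -0.16 with array weights and -0.025 with the replicate block, Cxcl3 at -0.042 with that block, and Cxcl2 at 0.037 with quantile normalization, 0.022 centred on the array median and 0.33 with the liver block or without those arrays. For IL-8 against KC, quantile normalization gave 0.032 for Cxcr1, 0.055 for Cxcr2 and 0.070 for Cxcl5, median centring 0.022, 0.041 and 0.0077, and the replicate block 0.020 for Cxcr2. Leaving out 1 array turned Cxcr2 (-0.082 to 0.16), Cxcl1 (-0.079 to 0.48) and Ppbp (-0.48 to 0.31) for IL-8 against vehicle. It turned Cxcr2 (-0.056 to 0.15), Cxcl1 (-0.23 to 0.33), Cxcl2 (-0.21 to 0.092) and Cxcl3 (-0.042 to 0.17) for KC against vehicle, and Cxcr1 (-0.057 to 0.026), Cxcr2 (-0.12 to 0.13) and Cxcl5 (-0.075 to 0.053) for IL-8 against KC. The cause was not tested. Signal near background limits all of these values.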
